A study of Mus musculus with 14 samples.

Results

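The voltage-gated potassium channel genes of the mouse were followed through their promoter histone H3 lysine 27 trimethylation (H3K27me3) in the maturing cerebellum. The genes were chosen by symbol, as every protein-coding gene named Kcna, Kcnab, Kcnb, Kcnc, Kcnd, Kcnf, Kcng, Kcnh, Kcnq, Kcns or Kcnv with a number, and this rule took 43 of 21938 annotated protein-coding genes. No measured value entered the rule. Whole cerebellum of C57BL/6NCrl mice with no genetic change or treatment was profiled by ChIP-seq, in which chromatin fragments carrying the mark are precipitated with an antibody and sequenced. There were 3 libraries each at P7, P14 and P60, the postnatal ages in days. Each replicate combined the cerebella of several mice at P7 and P14 and came from 1 mouse at P60, and both sexes were used. The series holds 14 libraries, and the remaining ones, from P14 mice with or without a conditional deletion of Kdm6b, were not used here because their peaks ran past the chromosome ends of the genome build named for them.

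Voltage-gated potassium channels open on depolarisation and let potassium leave the cell, which ends the action potential and sets how fast a neuron can fire again. The pore is made of alpha subunits, and the Kv1, Kv2, Kv3, Kv4, Kv7 and EAG families each form channels of their own, while the subunits of the Kcnf, Kcng, Kcns and Kcnv genes carry no current alone and change the Kv2 channels they join. Granule neurons, the most abundant cells of the cerebellum, acquire their firing properties after they leave the cell cycle, and H3K27me3 is the mark that Polycomb repressive complex 2 places at silenced genes.

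Promoter coverage is the share, in percent, of a window of 3 kb on each side of a transcription start site (TSS) under the authors' peaks, read in each list at the start site of the gene where it was highest. A promoter with at least 1 bp covered was called marked. Coverage measures how much sequence was called, not how strong the enrichment was. Every deposited peak was used, and the lowest -log10 q (q being the false discovery rate, FDR, of a peak) was 1.00. The study's methods name an FDR threshold of 0.01, which is a -log10 q of 2, so peaks short of it also count as marks. Genes marked in 2 or more of the 9 lists were tested with limma, with Benjamini-Hochberg adjustment over all 5120 such genes and a threshold of 0.05. Positions are on GRCm38.

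Stretches of sequence from 5 promoters show the range of what was seen, and they were chosen after the values were known. Those of Kcna2, Kcnc4 and Kcng3 are the 300 bases of the window that the lists covered most, outside untranslated exons, on the strand of the gene. Those of Kcna10 and Kcnd2, which no list covered, are the parts of their RefSeq promoters (GRCm38.p6) before the first untranslated exon. All are written 5′ to 3′ with every CpG dinucleotide, the letters CG on either strand, in capitals.
Kcna2 (chr3:107100609-107100908, + strand): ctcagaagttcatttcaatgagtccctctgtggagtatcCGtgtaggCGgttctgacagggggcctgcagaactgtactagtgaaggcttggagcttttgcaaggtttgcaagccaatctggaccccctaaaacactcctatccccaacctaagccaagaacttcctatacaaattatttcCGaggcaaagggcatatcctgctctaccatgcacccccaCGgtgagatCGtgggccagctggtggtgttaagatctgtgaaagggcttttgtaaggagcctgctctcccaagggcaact
Kcnc4 (chr3:107458553-107458852, - strand): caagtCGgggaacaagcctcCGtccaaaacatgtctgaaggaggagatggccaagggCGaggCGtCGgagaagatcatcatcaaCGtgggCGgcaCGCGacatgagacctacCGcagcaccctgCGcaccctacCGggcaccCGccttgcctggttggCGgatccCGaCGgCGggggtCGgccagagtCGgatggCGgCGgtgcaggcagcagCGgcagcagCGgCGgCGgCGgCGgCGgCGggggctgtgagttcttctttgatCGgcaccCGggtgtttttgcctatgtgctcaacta
Kcng3 (chr17:83630847-83631146, - strand): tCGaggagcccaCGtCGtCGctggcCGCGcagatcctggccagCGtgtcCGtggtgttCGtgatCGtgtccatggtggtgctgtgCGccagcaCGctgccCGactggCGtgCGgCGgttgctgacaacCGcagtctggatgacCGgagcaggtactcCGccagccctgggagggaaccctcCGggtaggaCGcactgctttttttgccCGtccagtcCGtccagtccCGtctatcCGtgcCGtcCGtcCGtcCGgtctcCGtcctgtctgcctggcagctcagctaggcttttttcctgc
Kcna10 (chr3:107182893-107183055, + strand): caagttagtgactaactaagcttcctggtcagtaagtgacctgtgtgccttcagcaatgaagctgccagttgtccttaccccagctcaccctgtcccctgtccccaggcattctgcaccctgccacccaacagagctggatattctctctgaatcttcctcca
Kcnd2 (chr6:21215096-21215345, + strand): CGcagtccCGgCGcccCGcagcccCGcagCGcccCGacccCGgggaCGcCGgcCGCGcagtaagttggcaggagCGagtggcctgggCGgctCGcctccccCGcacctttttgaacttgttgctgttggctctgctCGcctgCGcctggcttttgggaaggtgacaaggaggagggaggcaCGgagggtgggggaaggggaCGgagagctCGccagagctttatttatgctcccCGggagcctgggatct

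The Kcna2 stretch lies between genes, with its centre 387 bp upstream of the TSS, and holds 5 CpG. The P7 lists covered 300, 300 and 96 bp of it, and no P14 or P60 list covered any. The whole Kcna2 window was richer than this stretch, with 26.0 CpG per kb, more than 76.6% of all genes. The Kcnc4 stretch is coding sequence 849 bp downstream of the TSS with 31 CpG. It was covered over its whole length in all 3 P7 lists and in P14 replicates 2 and 3, and not at all in P14 replicate 1 or at P60. The Kcng3 stretch, with 30 CpG, runs across the end of a coding stretch (184 bp) into an intron, 898 bp downstream of the TSS, and stayed under peaks in every list, with 203, 249 and 300 bp covered at P60. The P60 peaks of highest fold enrichment in the Kcng3 window had a -log10 q of 1.66, 1.26 and 1.67, short of the 2 named in the study's methods. The Kcna10 and Kcnd2 stretches hold 0 and 22 CpG, and both stayed free of peaks. Among 32851 RefSeq promoters read over the same number of bases, 62.0% had at least as many CpG as the Kcna2 stretch, 10.6% as many as Kcnc4, 11.7% as many as Kcng3 and 14.8% as many as Kcnd2. The CpG-rich stretches thus included one that stayed under peaks to P60, one that was free of them at P60 and one that no list covered.

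H3K27me3 promoter coverage of the channel genes was lower at each later stage. Averaged over the 43 genes, it was 17.2 ± 5.47% at P7, 9.76 ± 3.39% at P14 and 2.78 ± 2.97% at P60 (SD over libraries, n = 3 each), while the average over all protein-coding genes was 4.11 ± 1.39%, 2.44 ± 1.06% and 0.701 ± 0.555%. The channel genes therefore had 4.12 to 4.33 times the coverage of the average gene in the P7 lists, 3.76 to 4.73 times in the P14 lists and 2.62 to 4.63 times in the P60 lists. Marked channel genes numbered 33, 26 and 24 in the P7 lists, 19, 21 and 22 in the P14 lists and 11, 12 and 19 in the P60 lists. In all, 33 of the 43 genes were marked in at least 1 list and 31 could be tested (72.1%, against 23.3% of all genes). Whole tissue was used, so fewer cells carrying the mark and less of the mark per cell cannot be told apart in any of these values.

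**Figure D1:**
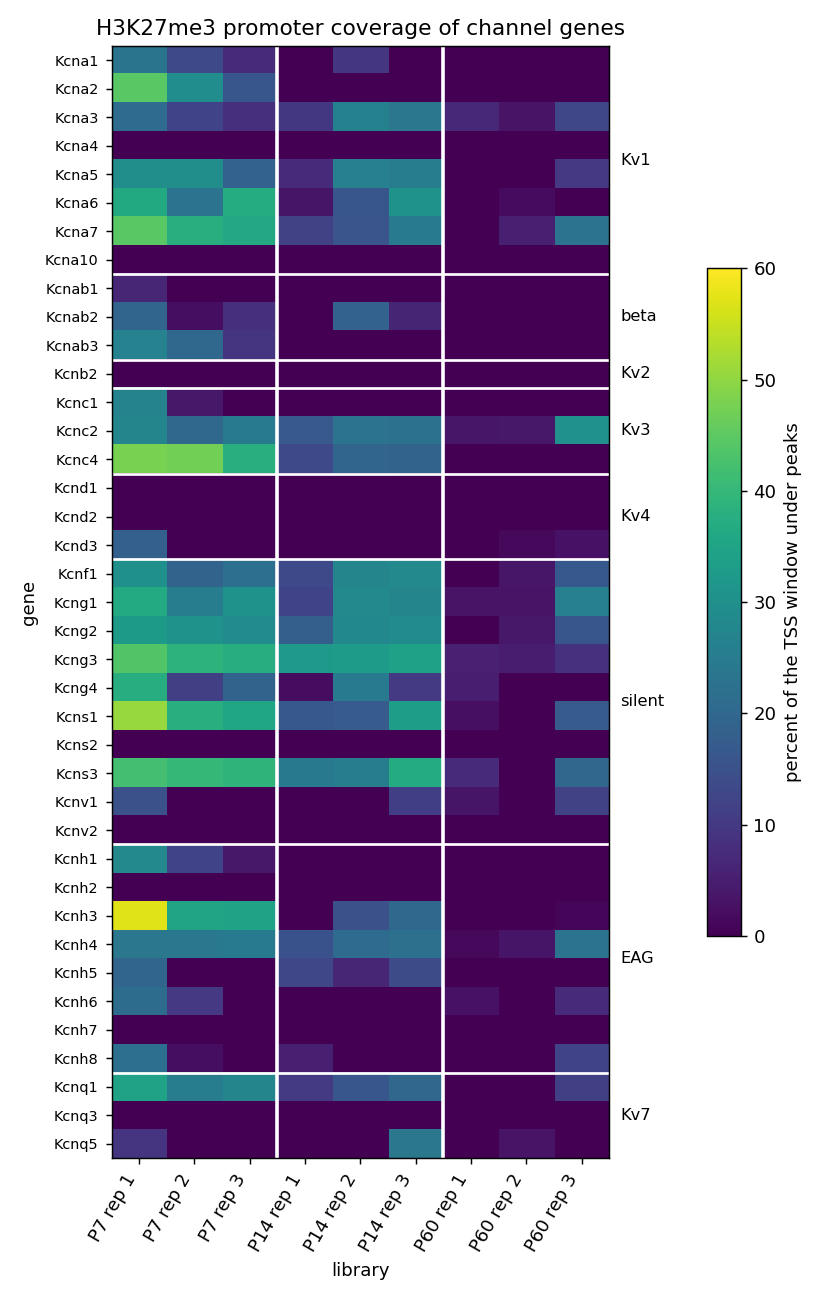
Percent of the TSS window under H3K27me3 peaks for the channel genes (39 rows, grouped by subfamily) in each of the 9 libraries (columns, P7, P14 and P60 from left to right). Dark rows with no coverage in any list number 10, and the P60 columns are dark for most genes except in replicate 3, where Kcnc2 reached 30.3%.

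The lists differed within a stage as well as between stages. They held 6905 to 15600 peaks over 1.48 to 15.2 Mb, and the number of reads behind them is unknown. The median peak was 134 and 149 bp wide in P60 replicates 1 and 2 and 410 bp in P60 replicate 3, against 269 to 751 bp in the P7 and P14 lists. P7 replicate 1 covered the most sequence, and 31 of the 33 genes marked at P7 had their highest P7 coverage in it. P14 replicate 1 had less coverage than both other P14 lists at 19 of the 24 genes marked at P14. At P60, replicate 3 had the highest coverage at 19 of the 31 tested genes. The part that peak width and covered length have in the stage differences was not tested beyond the settings given here and among the processing alternatives.

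Between P7 and P60, 19 of the 31 tested channel genes fell and 0 rose, a share of 61.3%. Over all 5120 tested genes, 45.8% fell and 0.605% rose. The median change was -18.8 percentage points over the tested channel genes and -11.99 over all tested genes. The tested channel genes also started higher. Their mean coverage was 31.5%, 20.2% and 18.8% in the P7 lists, against 22.8%, 14.9% and 13.4% over all tested genes. In proportion to P7 the median channel gene kept more at P60, 15.8% against 6.31% over all tested genes with coverage at P7. At 20 of the 31 genes every P60 list lay below every P7 list, which was so for 52.1% of all tested genes. The estimate was negative at 30 of the 31, the exception being Kcnv1 with 0.0833 points. When each library was centred on its own mean, so that a gene is read against the average gene, 11 channel genes were lower and 5 (among them Kcnd3, Kcnh8, Kcnq5 and Kcnv1) were higher at P60, against 19 and 0 without centring. Over all 5120 tested genes, 1080 were then lower and 1634 higher, so that more genes were higher than lower. The estimates of Kcna3, Kcnab2, Kcnc1, Kcnc2, Kcnh5 and Kcnh6 turned positive without passing. With P60 replicate 3 as the only P60 library, limma passed 0 of the 31 genes and 0 of all genes, and 11 and 1367 of them had an unadjusted p under 0.05. With any 1 library left out, 13 to 18 genes passed, with 31.2% to 53.2% of all tested genes past the threshold. Kcna1, Kcna5, Kcnf1, Kcng1, Kcng4 and Kcnh1 missed the threshold at least once (limma, adjusted p of 0.0504 to 0.158). Of these, Kcna5 did so without P60 replicate 1, Kcna1 without any one of the P60 libraries, and Kcnf1, Kcng1, Kcng4 and Kcnh1 without at least 1 library of every stage. At equal covered length, with each list cut to its strongest peaks, 13 channel genes could be tested and 5 of them fell, with 18.5% of all 1624 tested genes past the threshold. Of the 13 estimates, 9 were negative, and those of Kcna3, Kcna7, Kcnf1 and Kcns3 were positive.

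The Kv1 family sets the threshold of firing in axons and terminals. From P7 to P60, 5 of its 6 tested genes fell, against 45.8% of all tested genes. Kcna2, whose subunit is found along axons and in the basket cell terminals of the cerebellum, had promoter coverage of 44.6%, 29.4% and 16.0% in the P7 lists, 0% in all 3 P14 lists and 0% in all 3 P60 lists. The window was covered in all 3 P7 lists and in no later one, with a change from P7 to P14 of -30.0 percentage points (SE 6.10, adjusted p = 0.0115) and the same change from P7 to P60 (adjusted p = 0.00301). Kcna1, the usual partner of Kcna2 and the gene mutated in human episodic ataxia, had 23.2%, 13.2% and 7.20% in the P7 lists, 0%, 9.52% and 0% in the P14 lists and 0% in all 3 P60 lists. P14 replicate 2 lay within the P7 range, so the P7 and P14 lists overlapped, and the change was -11.4 percentage points (SE 4.55, adjusted p = 0.129) from P7 to P14 and -14.5 percentage points (SE 4.55, adjusted p = 0.0224) from P7 to P60. Kcna6, a further neuronal member, had 36.5%, 22.9% and 37.2% in the P7 lists, 3.37%, 16.0% and 30.9% in the P14 lists and 0%, 1.83% and 0% in the P60 lists. Its P14 lists were spread over nearly the whole range between the other stages, and the change from P7 to P60 was -31.6 percentage points (SE 6.79, adjusted p = 0.00386).

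Kcna7, known mainly from muscle, showed the highest P7 coverage of the family. It had 44.7%, 37.7% and 36.2% in the P7 lists, 11.9%, 15.8% and 24.6% in the P14 lists and 0%, 5.27% and 22.8% in the P60 lists. Each P14 list lay below each P7 list, P60 replicate 3 lay within the P14 range, and the change was -22.1 percentage points (SE 6.62, adjusted p = 0.0520) from P7 to P14, short of the threshold, and -30.2 percentage points (SE 6.62, adjusted p = 0.00424) from P7 to P60. Kcna3, best known for its channel in T lymphocytes, was the family member that did not pass in any comparison and was marked in all 9 lists. Its coverage was 21.1%, 12.1% and 8.30% in the P7 lists, 9.70%, 26.5% and 23.7% in the P14 lists and 6.62%, 3.07% and 12.7% in the P60 lists. The P14 lists reached as high as the P7 lists or higher, P60 overlapped P7, and the change from P7 to P60 was -6.37 percentage points (SE 5.68, adjusted p = 0.370). Kcna5, the fifth gene that fell from P7 to P60, changed by -22.7 percentage points (SE 6.13, adjusted p = 0.0114), and Kcna4 and Kcna10 carried no peak in any list.

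Neighbouring Kv1 genes differed. Kcna3 (chr3:107036169-107038070), Kcna2 (chr3:107101146-107115005) and Kcna10 (chr3:107183056-107195721) stand in a row on chromosome 3, with Kcnc4 (chr3:107438303-107459552) further along. In that order, the first was marked in all 9 lists, the second at P7 only, the third never, and Kcnc4 in the 6 P7 and P14 lists only. On chromosome 6, Kcna5 (chr6:126532551-126535412), Kcna1 (chr6:126640397-126646384) and Kcna6 (chr6:126708329-126740674) all fell from P7 to P60.

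The Kcnab genes encode cytoplasmic beta subunits that bind Kv1 channels and alter their inactivation and traffic. Kcnab3 had 26.7%, 20.4% and 9.22% in the P7 lists, 0% in all 3 P14 lists and 0% in all 3 P60 lists. The P7 lists stood apart from all 6 later ones, and the change from P7 to P14 was -18.8 percentage points (SE 4.36, adjusted p = 0.0217). The window of Kcnab3 also holds start sites of Cntrob and Trappc1, and it was the only channel gene window shared with another protein-coding gene, so this fall cannot be placed at Kcnab3 alone. Kcnab2 changed by -10.0 points from P7 to P60 (adjusted p = 0.148, limma with Benjamini-Hochberg adjustment), and Kcnab1 was marked in P7 replicate 1 only.

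The Kv3 channels repolarise fast and let neurons fire at high rates. Kcnc4, the member with a rapidly inactivating current, had 48.0%, 47.3% and 37.9% in the P7 lists, 13.2%, 19.7% and 19.1% in the P14 lists and 0% in all 3 P60 lists. No stage overlapped another. The change of -27.1 percentage points (SE 4.90, adjusted p = 0.00646) from P7 to P14 had the lowest adjusted p of the channel genes in that comparison, and so did that of -44.4 percentage points (SE 4.90, adjusted p = 0.000523) from P7 to P60. Kcnc1, expressed in granule neurons, had 26.8%, 3.98% and 0% in the P7 lists, 0% in all 3 P14 lists and 0% in all 3 P60 lists. Its single high value was in P7 replicate 1, and the change was -10.3 percentage points (SE 5.54, adjusted p = 0.143) from P7 to P60. Without P7 replicate 3, which was at 0%, it was -15.4 points and passed (adjusted p = 0.0438), and without P7 replicate 1 it was -1.99 points (adjusted p = 0.199). Kcnb2, a member of the Kv2 family, was never marked.

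Kcnc2, another Kv3 gene, was marked in all 9 lists, with 27.6%, 20.2% and 25.0% in the P7 lists, 16.7%, 22.8% and 22.7% in the P14 lists and 3.65%, 3.78% and 30.3% in the P60 lists. P60 replicate 3 was the highest of all 9 and the other P60 lists were the lowest, so the P60 lists spanned the whole range, and the change from P7 to P60 was -11.7 percentage points (SE 6.94, adjusted p = 0.179). Without P60 replicate 3 it was -20.6 points and passed (adjusted p = 0.00768), and without P60 replicate 1 or 2 it was -7.26 or -7.33 points (adjusted p of 0.477 and 0.474). Of the Kv4 genes, whose channels carry the transient A-type current of dendrites, Kcnd2, the granule neuron member, and Kcnd1 had no peak in any of the 9 lists, and Kcnd3 had 18.4% in P7 replicate 1 and at most 2.88% elsewhere.

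The Kcnf, Kcng, Kcns and Kcnv genes, whose subunits are silent alone and modify Kv2 channels, held the most coverage. Their average over 10 genes was 23.5 ± 4.69% at P7, 17.1 ± 4.74% at P14 and 5.28 ± 5.51% at P60 (SD over libraries, n = 3 each). From P7 to P60, 7 of the 8 tested genes fell, against 45.8% of all tested genes. Kcns1, expressed in sensory and cortical neurons, had 50.9%, 37.7% and 35.6% in the P7 lists, 16.6%, 17.1% and 33.6% in the P14 lists and 2.48%, 0% and 17.3% in the P60 lists. All P7 lists lay above all P14 lists, though P14 replicate 3 came close to them, and P60 replicate 3 lay above P14 replicates 1 and 2. The change from P7 to P60 was -34.8 percentage points (SE 7.10, adjusted p = 0.00306). Kcns3 had 42.2%, 39.9% and 38.9% in the P7 lists, 24.3%, 25.5% and 37.0% in the P14 lists and 7.12%, 0% and 19.7% in the P60 lists. Its stages did not overlap, and the change from P7 to P60 was -31.4 percentage points (SE 6.44, adjusted p = 0.00312).

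Kcnf1 and Kcng1 did not pass from P7 to P14. Kcnf1 had 30.0%, 19.1% and 21.9% in the P7 lists, 13.2%, 27.4% and 28.3% in the P14 lists and 0%, 3.57% and 16.6% in the P60 lists. The P14 lists overlapped the P7 lists, and P60 replicate 3 lay above the lowest P14 list. The change was -0.733 points from P7 to P14 (adjusted p = 0.959) and -16.9 percentage points (SE 6.15, adjusted p = 0.0417) from P7 to P60 in the limma test. Kcng1 had 36.8%, 25.5% and 30.6% in the P7 lists, 12.02%, 28.2% and 27.3% in the P14 lists and 3.25%, 3.27% and 26.2% in the P60 lists. P60 replicate 3 lay inside the P7 range and the other P60 lists lay near 3%, and the change from P7 to P60 was -20.1 percentage points (SE 7.31, adjusted p = 0.0423).

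Kcng3, given here because it was the only channel gene past the threshold from P14 to P60 and thus chosen after its values were seen, had 43.8%, 38.7% and 37.4% in the P7 lists, 32.4%, 33.2% and 34.3% in the P14 lists and 5.53%, 4.88% and 8.48% in the P60 lists. The P14 lists were close to each other and lay just below the P7 lists, while all 3 P60 lists, replicate 3 included, were far lower. The change was -6.66 percentage points (SE 5.14, adjusted p = 0.396) from P7 to P14 and -27.0 percentage points (SE 5.14, adjusted p = 0.0380) from P14 to P60. The second of these missed the threshold without P7 replicate 2 or 3, P14 replicate 2 or 3 or P60 replicate 1 or 2 (adjusted p of 0.0662 to 0.208), with a change of -27.1 to -26.3 points each time. Kcng2 and Kcng4 also fell from P7 to P60, with changes of -24.1 and -21.0 points (Kcng4 -13.6 without P7 replicate 1), Kcnv1 did not pass in any comparison, and Kcns2 and Kcnv2 were never marked.

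The Kcnh genes encode the EAG, ERG and ELK channels, which gate slowly and act near the resting potential. From P7 to P60, 2 of their 6 tested members fell, against 45.8% of all tested genes. Kcnh3, an ELK channel gene of forebrain neurons, had 57.1%, 35.0% and 34.6% in the P7 lists, 0%, 14.8% and 20.2% in the P14 lists and 0%, 0% and 0.833% in the P60 lists. P7 replicate 1 was the highest value of any channel gene in any list, no P14 list reached the P7 range, and the change was -30.6 percentage points (SE 7.02, adjusted p = 0.0200) from P7 to P14 and -42.0 percentage points (SE 7.02, adjusted p = 0.00133) from P7 to P60. Kcnh4, a second ELK gene, had 23.8%, 24.1% and 24.5% in the P7 lists, 15.1%, 20.9% and 22.0% in the P14 lists and 1.30%, 3.50% and 22.8% in the P60 lists. The P7 lists were within 1 point of each other, P60 replicate 3 lay above every P14 list, and the change of -14.9 percentage points (SE 5.87, adjusted p = 0.0562) from P7 to P60 missed the threshold. Without P60 replicate 3 it was -21.7 points and passed (adjusted p = 0.00515), and without P60 replicate 1 or 2 it was -11.0 or -12.1 points (adjusted p of 0.211 and 0.190). Kcnh6, an ERG gene, had 21.2%, 9.88% and 0% in the P7 lists, 0% in all 3 P14 lists and 2.93%, 0% and 7.47% in the P60 lists, with no mark at P14 and some in P60 replicates 1 and 3. Its change from P7 to P60 was -6.90 percentage points (SE 4.80, adjusted p = 0.251), and without P7 replicate 3, which was at 0%, it was -12.1 points and passed (adjusted p = 0.0325). Without P7 replicate 1 it was -1.48 points (limma, adjusted p = 0.773). Kcnh1, the EAG gene first described, was marked at P7 only. It changed by -14.8 percentage points (SE 5.13, limma, adjusted p = 0.0350) from P7 to P60 (-8.06 points without P7 replicate 1). Kcnh2, the ERG gene of the heart, and Kcnh7 had no peak in a TSS window in any list. Outside its windows, the body of Kcnh7 had 111 to 184 bp under peaks in the P14 lists and 72 to 194 bp in the P60 lists. Kcnh5 and Kcnh8 did not pass in any comparison.

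The Kcnq genes encode the Kv7 channels, whose neuronal members carry the M-current, which restrains repetitive firing. Kcnq1, the cardiac and epithelial member, changed by -25.3 percentage points (SE 5.12, adjusted p = 0.00291) from P7 to P60. Kcnq3, a neuronal member, was never marked, and Kcnq5 did not pass in any comparison.

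**Figure D2:**
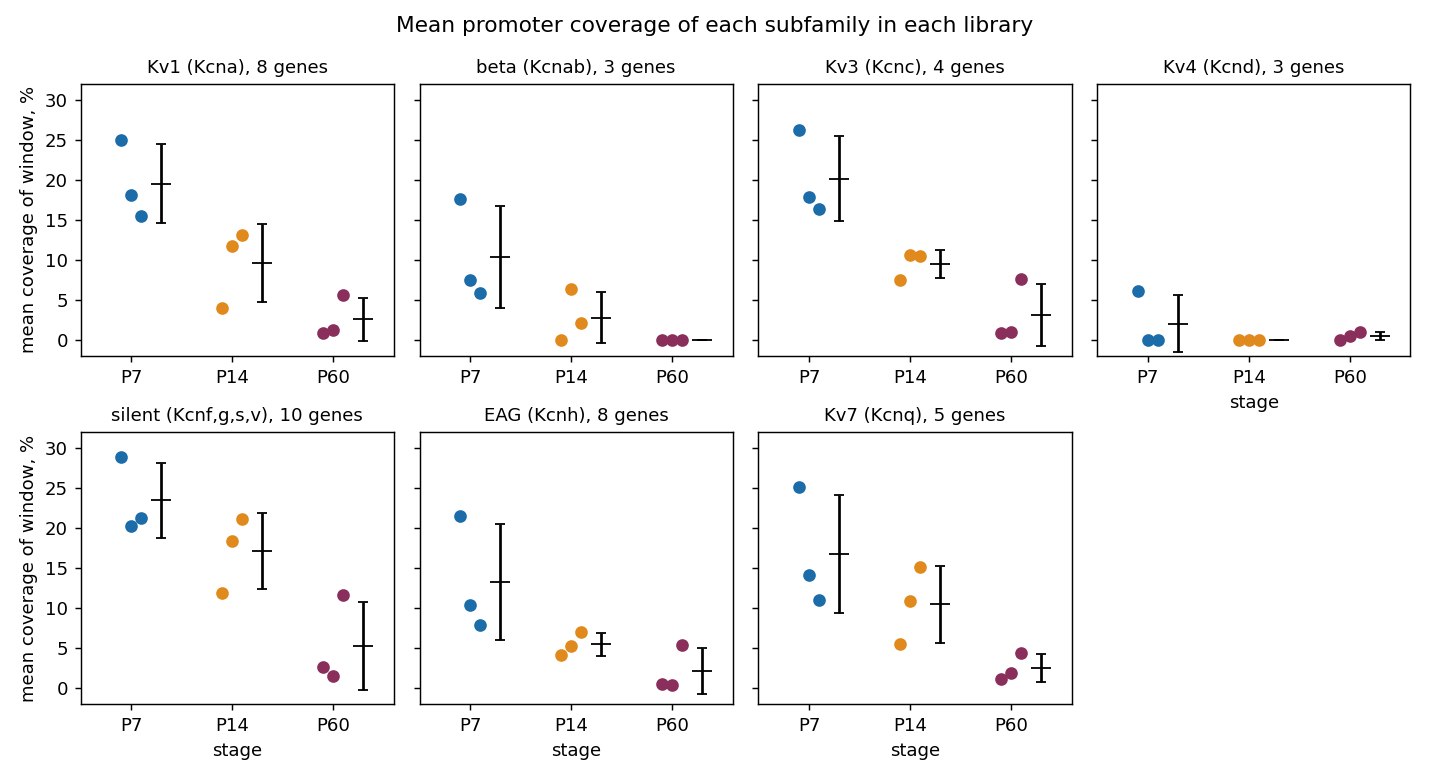
Mean promoter coverage of the genes of 7 subfamilies (vertical axis, percent of the TSS window) in each library (points) at P7, P14 and P60, with the mean and SD of the 3 libraries beside them. The silent subunit genes had the highest mean at each stage (23.5%, 17.1% and 5.28%), and the Kv4 genes had 2.05% at P7 and 0% at P14.

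Few channel genes passed in either step alone, and the difference of the 2 steps passed for none. From P7 to P14, 4 of the 31 tested channel genes fell (Kcna2, Kcnab3, Kcnc4 and Kcnh3) and 0 rose, a share of 12.9%, against 11.7% of all tested genes that fell and 0.352% that rose. With each library centred on its own mean, 5 channel genes were lower (Kcna7 added) and 1, Kcna3, was higher at P14 by 12.8 points (limma, adjusted p = 0.0283), and over all tested genes 435 were lower and 385 higher. Without P7 replicate 1, 4 channel genes fell and 1 rose, with 10.3% of all tested genes past the threshold. From P14 to P60, 1 fell (Kcng3) and 0 rose, a share of 3.23%, against 2.07% of all tested genes that fell and 0% that rose. The median change of the tested channel genes was -10.3 points in the first step and -10.6 in the second, and over all tested genes it was -5.73 and -4.86. The share of channel genes past the threshold in either step was thus near that of all genes. Leaving out P7 replicate 3, P14 replicate 1 or P14 replicate 2 gave 7, 2 or 1 genes from P7 to P14, with 19.0%, 6.84% or 3.22% of all tested genes past the threshold. Kcna2, Kcnab3 and Kcnh3 missed the threshold without P14 replicate 2 (adjusted p of 0.0557 to 0.0822), and Kcnab3 and Kcnh3 also without P14 replicate 1 (0.0575 and 0.0656). From P14 to P60, leaving out P14 replicate 1, P60 replicate 3 or P7 replicate 1 gave 10, 3 or 2 genes, with 21.5%, 3.55% or 4.18% of all tested genes, and leaving out any of the other 6 libraries gave 0 by limma, with 4 to 9 at an unadjusted p under 0.05. Every P14 list lay below every P7 list at 12 channel genes (27.2% of all tested genes) and every P60 list below every P14 list at 8 (25.7%).

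The contrast of the first step minus the second, fitted in the same limma model, passed for 0 of the 31 channel genes and for 0% of all tested genes in either direction. At an unadjusted p under 0.05 there were 3 channel genes and 594 genes in all. The 3 were Kcna2 with -30.0 percentage points (SE 10.6, adjusted p = 0.306) and Kcnab3 with -18.8 percentage points (SE 7.56, adjusted p = 0.379), whose larger fall came before P14, and Kcng3 with 20.3 percentage points (SE 8.90, adjusted p = 0.406), whose larger fall came after it. Of the 19 genes that fell from P7 to P60, 9 had the larger estimate before P14 and 10 after it. The median of the contrast was 0.172 points over the tested channel genes and 0.175 over all tested genes. Among the 19, 5 were at 0 in all 3 P60 lists (Kcna1, Kcna2, Kcnab3, Kcnc4 and Kcnh1), and all 5 had the larger estimate before P14. For Kcna2, Kcnab3 and Kcnh1 this was fixed in advance, since they were at 0 in all P14 lists as well and could not fall further.

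**Figure D3:**
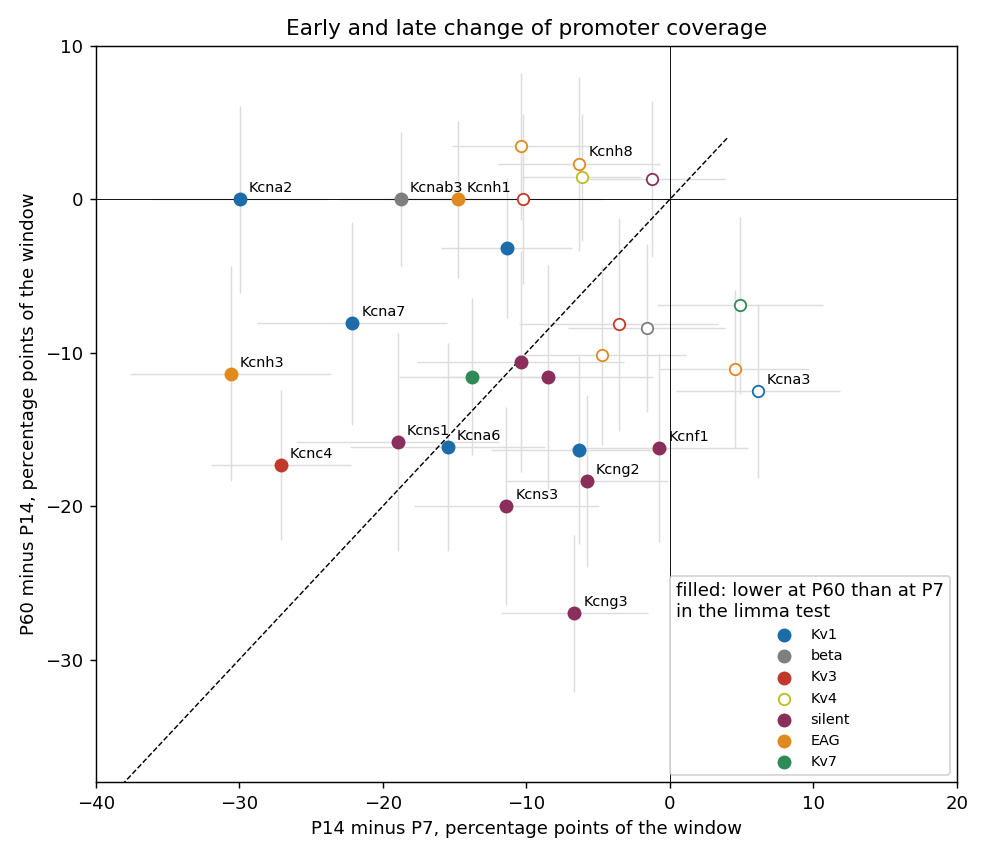
Change of promoter coverage from P7 to P14 (horizontal axis) against that from P14 to P60 (vertical axis), both in percentage points of the TSS window, for 28 of the tested genes, with the SE of each as grey bars and equal change as the dashed line. Filled points passed the limma test from P7 to P60. Kcna2 at -30.0 and 0 and Kcng3 at -6.66 and -27.0 lie at opposite ends.

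The subfamilies kept different shares of their P7 coverage, and whether they differ from each other was not tested. The median gene of the silent subunit group had 73.9% of its P7 coverage left at P14 and 21.9% at P60. The corresponding values were 48.0% and 7.29% for the Kv1 genes, 24.5% and 17.0% for the Kcnh genes and 19.5% and 0% for the Kv3 genes. The P60 shares of the silent subunit group lean on 1 library. Its P60 mean of 5.28% had an SD of 5.51 over libraries, and replicate 3 was the highest P60 list at every tested gene but Kcng4. The Kv3 and Kcnh medians include genes with 0% in P7 replicate 3, among them Kcnc1, Kcnh6 and Kcnh8. Over all tested channel genes the medians were 54.2% and 15.8%, and over the 4680 tested genes with coverage at P7 they were 58.6% and 6.31%. All genes past the threshold from P7 to P14 were in the Kv1, beta, Kv3 and Kcnh groups, with 1 in each, and the silent subunit group, with 8 tested genes, had 0.

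The mark lay mostly on the transcribed side of the start site. Over the 31 tested genes, peaks covered 60.4 ± 15.0% of the bin from 500 to 1000 bp downstream of the TSS at P7, and 19.2 ± 2.62% of the bin from 500 to 1000 bp upstream of it (SD over libraries, n = 3). At P14 the highest bin was that from the TSS to 500 bp downstream, with 41.0 ± 11.8%, and at P60 the same bin had 12.4 ± 13.9%. Beyond the windows, the bodies of 40 channel genes, 4.78 Mb in all, were covered over 0.111% to 0.263% in the P7 lists, 0.0312% to 0.140% in the P14 lists and 0.0107% to 0.0604% in the P60 lists.

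**Figure D4:**
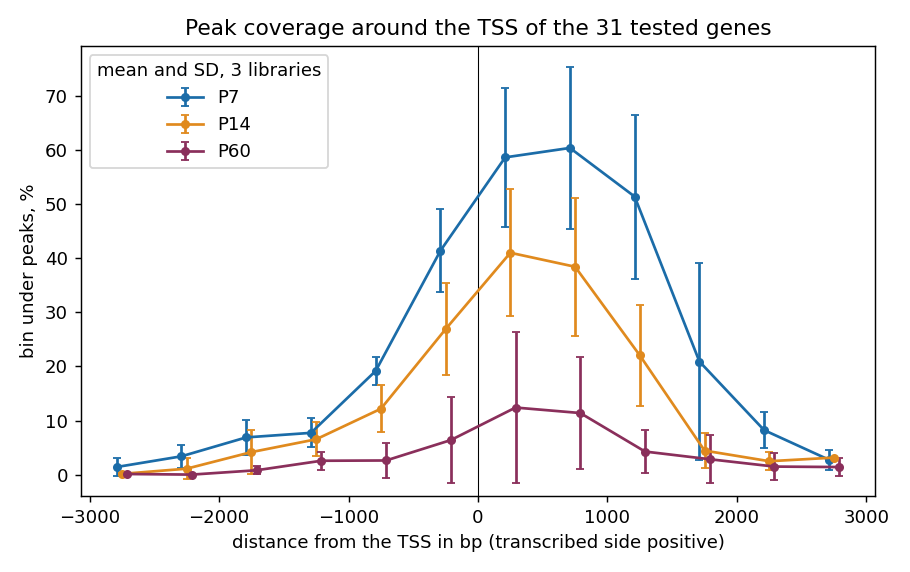
Percent of each 500 bp bin under H3K27me3 peaks, averaged over the 31 tested genes, by distance from the TSS in bp (positive on the transcribed side), as the mean and SD of 3 libraries at P7, P14 and P60. Coverage was highest within 1500 bp downstream of the TSS, at 60.4% at P7, 41.0% at P14 and 12.4% at P60 in the highest bin.

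The widest peak at a channel gene was mostly wider than the median peak of its own list, and enrichment was ordinary or lower. The list median is over all peaks, also those away from promoters. Peaks at the promoters of other genes were not compared, so neither trait is shown to be particular to channel genes. The widest peak in the window had a median width of 1321.5 to 1691 bp in the P7 lists, 713 to 1427.5 bp in the P14 lists and 205 to 648 bp in the P60 lists. It was wider than the median peak of its list at 31 of 33, 22 of 26 and 17 of 24 genes at P7 and at 10 of 11, 10 of 12 and 17 of 19 genes at P60. The highest fold enrichment of any peak in the window, over the background of the library, was above the list median at 15, 8 and 10 genes at P7, at 4, 7 and 7 genes at P14 and at 2, 1 and 2 genes at P60. The widest peak of Kcna2 in P7 replicate 1 spanned 2675 bp and that of Kcna3 in the same list 1265 bp, with a highest fold enrichment of 2.18 and 3.59. In P60 replicate 1 the widest peak at Kcna3 spanned 397 bp, with a highest fold enrichment of 3.92.

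The windows of the tested channel genes had a median of 29.2 CpG per kb, those of the 10 genes that were never marked 19.6 (range 7.17 to 34.3), and those of all tested genes 22.8. Kcng3 had the highest density of the channel genes, 47.8 per kb, and Kcna10 the lowest, 7.17. Density did not sort marked from unmarked genes on its own, since Kcnh2 with 34.3 and Kcnd2 with 34.0 CpG per kb were free of peaks and Kcnh6 with 14.5 was marked.

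Genes whose products assemble with these channels or place them in the membrane were read from a fixed list of 20, of which 19 were found, 9 could be tested and 8 were never marked. From P7 to P14, 1 of the 9 fell (Kcnip3) and 0 rose, against 11.7% and 0.352% of all tested genes. From P14 to P60 0 did either, against 2.07% of all tested genes that fell. From P7 to P60, 7 of the 9 fell and 0 rose, against 45.8% and 0.605% of all tested genes. Kcnip3, a calcium sensor that binds Kv4 channels, had coverage of 47.2%, 38.6% and 42.0% in the P7 lists, 9.12%, 24.3% and 26.1% in the P14 lists and 0% in all 3 P60 lists. Ank3, the ankyrin that holds Kv7 channels at the axon initial segment, fell by 36.6 points from P7 to P60 (limma, adjusted p = 0.00564). The Kv4 partner Kcnip1 and the juxtaparanodal protein gene Cntnap2 fell by 24.4 and 8.87 points.

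Marker genes of cerebellar cell types also had less coverage at P60 than at P7. Over all 5120 tested genes, the share that fell from P7 to P60 was 45.8%. The 10 granule neuron markers averaged 4.41% to 10.5% in the P7 lists, 0.172% to 2.91% in the P14 lists and 0% in all P60 lists, with 2 of 3 tested markers falling from P7 to P60 and 5 never marked. Over the P7, P14 and P60 lists in turn, the 8 Purkinje cell markers averaged 7.49% to 16.0%, 1.39% to 5.68% and 0.479% to 1.48%, with 3 of 4 falling. The 7 oligodendrocyte lineage markers averaged 15.7% to 22.2%, 8.38% to 19.0% and 0.405% to 5.45%, with 3 of 4 falling, and the 7 inhibitory interneuron markers 10.9% to 22.9%, 4.85% to 19.7% and 0% to 0.921%, with 4 of 5 falling. The 7 Hox genes, which are silent in the cerebellum, had 22.5% at P7, 19.0% at P14 and 0% at P60 on average, and all 7 fell from P7 to P60. From P7 to P60, 1 of 3 tested astrocyte and Bergmann glia markers, 2 of 3 endothelial and mural markers and 0 of 1 microglial markers fell. Coverage of the channel genes thus shared its direction from P7 to P60 with that of neuronal, glial and Hox genes, but the size of the 2 steps varied. The median change of tested genes from P7 to P14 was -21.9 points for the 3 granule neuron and -7.94 for the 4 Purkinje cell markers. The 3 granule neuron markers were Rbfox3 (-30.75), Cbln1 (-21.9) and Reln, which went the other way (4.03). Among the Purkinje cell markers Rora was at -30.5 and the others between -9.08 and -6.02. The median was -7.54 for oligodendrocyte lineage markers, -1.29 for inhibitory interneuron markers and -2.39 for Hox genes. From P14 to P60 these medians were -6.81, -5.36, -21.0, -19.8 and -21.5 points in turn. The part of cell composition and of the peak calls at P60 in these changes was not tested.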

How the data were processed

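Whole cerebellum was profiled by H3K27me3 ChIP-seq in single-end libraries. According to the submitters' processing notes and the study's methods, the authors checked reads with FastQC, trimmed them with Trimmomatic 0.38, aligned them to mm10 (GRCm38) with STAR 2.7.2b and called broad peaks for each library with MACS2 2.1. The deposited lists give peak positions, a fold enrichment ratio over the background of the library, p and q values as −log10, and a score of 10 times −log10 q, all set by the authors' peak caller within a library. The lowest deposited −log10 q was 1.00, short of the 2 that corresponds to the FDR threshold of 0.01 named in the study's methods. The lists hold no read numbers, so the depth is unknown and no interval of counting error can be given. The libraries are labelled as separate samples, and p-values measure the spread between them.

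Peak starts were read as 0-based and intersected with TSS windows of 21938 protein-coding genes (GENCODE vM21). Coverage was the percent of the most covered window of 3 kb on each side, which could differ between libraries. The 5120 genes marked in 2 or more of 9 lists were compared with limma 3.58.1 (trend, robust, two-sided, no covariate) in R 4.3.3, after a test on simulated data. CpG were counted on GRCm38.p6, and 27 channel genes matched a RefSeq promoter. Python 3.11.15, numpy 2.4.6, pandas 2.3.3 and matplotlib 3.10.9 were used.

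The channel genes, lists and tests were chosen with earlier results of these data known. Values in every library are given for the largest fall from P7 to P60 of each subfamily, for genes past the threshold from P7 to P14 or in the contrast of the 2 steps, for up to 8 genes with peaks in 2 or more P60 lists, for up to 4 well covered genes that did not fall, for any that rose, and for Kcna1, Kcna2, Kcnc1 and Kcnd2, which are best known from cerebellar neurons. Some genes that this rule takes are not reported here, though they count in all totals. Other genes named were chosen after their values were seen. The Kdm6b lists were not used, since 25 to 74 peaks in each ran past GRCm38 chromosome ends, although the labels name mm10, and no such peak occurred in the age series. Replicate numbers are not stated to mark a shared batch and did not pair the samples.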

Additional observations from a re-analysis of the deposited data

How the results depend on the processing

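Counts of channel genes depended on the processing, and the cause was not tested unless named. From P7 to P60 (19 of 31), -log10 q of 4 or more gave 8 of the 11 channel genes it could test (6 shared with the 19, against 26.5% of all genes), equal covered length (each list cut to its strongest peaks until it covered as much as the shortest list) 5 of 13 (4 shared, 18.5% of all genes), and P60 replicate 3 alone, a setting chosen after seeing the data, 0, with 1 library in that stage assumed to vary like the others. At -log10 q of 4 or more, the changes of Kcnc2, Kcng1, Kcng2, Kcng3, Kcnh4 and Kcnq1 were as large as their whole P7 means (Kcng3 -39.95 points). No P60 peak of these genes passed that cut, so the setting cannot show how much of their weaker coverage was left at P60. The range with 1 library left out was 13 to 18, with 31.2% to 53.2% of all genes past the threshold, and 13 of the 19 passed each time. At -log10 q of 2 or more, 16 of 23 tested channel genes passed (14 shared with the 19, against 45.3% of all genes). Kcna2, Kcna5 and Kcnab3 were among those that missed the threshold there. At equal covered length the direction turned for Kcna7 (8.31 points), Kcna3 (7.46), Kcns3 (3.43) and Kcnf1 (1.19). Centring gave 11 lower and 5 higher from P7 to P60 (1080 and 1634 over all genes). From P7 to P14 (4), centring gave 5 lower and 1 higher, -log10 q of 2 or more 2 of 23 tested (1 shared), -log10 q of 4 or more 0 of 11, equal covered length 0 of 13 and P60 replicate 3 alone 1, and leaving out 1 library gave 1 (without P14 replicate 2) to 7 (without P7 replicate 3), with Kcnc4 alone passing each time. From P14 to P60 (1), the count was 2 after centring, 4 and 0 at -log10 q of 2 and 4 or more, 2 at equal covered length, with peaks of 300 bp or more, with peaks joined across 1 kb and without trend and robust variance, 5 with windows of 1 kb and 0 with windows of 5 kb, 0 with genes marked in 1 or more lists (added after seeing the data) and 0 with P60 replicate 3 alone, where limma at an unadjusted p under 0.05 gave 2. Leaving out 1 library gave 0 to 10, the 10 without P14 replicate 1. From P7 to P14 the share of all genes was 16.0% after centring, 12.2% and 6.55% at -log10 q of 2 and 4 or more and 9.85% at equal covered length. The first step minus the second (0) gave 1 after centring (Kcna2) and 1 at equal covered length (Kcng3), with 4.90% and 6.34% of all genes past the threshold. With 1 library left out it gave 0 to 0.

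The numbers of the replicates did not pair the samples, since same-numbered libraries correlated between -0.216 and 0.249 in their deviations from the stage means. With the replicate block, 2 genes passed from P7 to P14, 0 from P14 to P60, 16 from P7 to P60 and 0 in the contrast of the 2 steps. Over all tested genes the shares were 4.61%, 0%, 40.1% and 0% in turn.

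Average coverage of the 43 genes at P7, P14 and P60 was 36.1%, 22.8% and 6.74% with windows of 1 kb and 10.6%, 6.02% and 1.77% with windows of 5 kb. It was 8.32% at P7 and 4.36% at P14 with -log10 q of 4 or more and 5.20% and 4.10% at equal covered length. With marked set at 10% of the window, 0 genes were marked in P60 replicate 1 and 0 in P60 replicate 2, against 11 and 12. The comparison of Kdm6b-cKO with Kdm6b-WT and its alternatives were not run, and limma could not be fitted with no filter on genes because most variances were 0.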
